A study of Homo sapiens with 12 samples.

Results

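The NRF2 antioxidant enzymes are described here as 9 genes: HMOX1, GCLM, GCLC, NQO1, TXNRD1, SRXN1, OSGIN1, ME1 and TXN. They were taken by symbol from the probe annotation of the array, and every probe with 1 of these symbols was kept. The annotation gave 13 probes for 8 of the 9 genes, and all 13 passed the filter on detection. OSGIN1 has no probe under its symbol in that annotation and is not analysed here. The 8 genes stand among 12290 named genes with a tested probe. The rule itself uses gene symbols and no measured value.

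RNA came from U2OS cells, a human osteosarcoma line, and was measured on 12 Illumina bead arrays with 1 array per sample. ST362 and MEB55 are synthetic analogues of strigolactones, a class of plant hormones. Cells received 5 ppm of ST362, 5 ppm of MEB55 or the acetone vehicle alone for 6 h or 24 h, which gives 6 groups of 2 arrays. The doses were equal by mass, and equal molarity was not the design. All groups are the same cell line. The study states independent experiments for its 6 h arrays and, in general terms, for its results, and p-values measure only the spread between these arrays. In bulk RNA, fewer cells that express a gene and less of its RNA per cell cannot be told apart.

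NRF2 is a transcription factor that KEAP1 holds at a low level by sending it to the proteasome. Electrophiles and oxidants modify cysteines of KEAP1, and NRF2 then enters the nucleus, pairs with small MAF proteins and binds antioxidant response elements. Its targets make and recycle glutathione and thioredoxin, supply NADPH and detoxify quinones and heme. HMOX1 is also known as a target of the heat shock factor HSF1, and BACH1 represses it when heme is low.

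The antioxidant response element core TGACNNNGC was looked for on both strands of the RefSeq promoter windows (GRCh38.p14), each running over 300 bases, 250 before and 50 after the gene start. The table held windows for 8 members, 9 windows in all with 2 for TXNRD1, and none for HMOX1. The core was found in windows of 3 members, GCLM, TXNRD1 and ME1, whereas 13.3% of all 35116 windows hold it. The upstream matches are shown because GCLM, TXNRD1 and ME1 share these letters although their levels followed different arrays. The capitals mark the core as it lies on the gene's strand, so GCLM and the downstream TXNRD1 window read it in reverse complement.
GCLM, chr1:93909431-93909504, minus strand: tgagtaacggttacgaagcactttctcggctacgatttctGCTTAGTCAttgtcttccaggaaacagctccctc
TXNRD1, upstream window, chr12:104215640-104215728, plus strand: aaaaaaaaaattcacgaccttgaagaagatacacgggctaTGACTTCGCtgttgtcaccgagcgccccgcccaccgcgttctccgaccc
TXNRD1, downstream window, chr12:104286890-104286978, plus strand: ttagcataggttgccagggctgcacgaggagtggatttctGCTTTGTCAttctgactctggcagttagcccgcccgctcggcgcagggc
ME1, chr6:83431140-83431228, minus strand: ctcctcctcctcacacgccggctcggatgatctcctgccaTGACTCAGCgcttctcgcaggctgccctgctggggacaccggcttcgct

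The core began 34 bases before the start of GCLM, 99 and 102 bases before the starts of TXNRD1, and 137 bases before the start of ME1. A further match lay across the start of the upstream TXNRD1 window and another lay after the start of ME1. The windows of GCLC, NQO1, SRXN1, OSGIN1 and TXN did not hold these letters, and sequence outside the windows was not searched. The heat shock element pairs GAANNTTC (6.77% of all windows) and TTCNNGAA (7.74%) and the C/EBP-ATF element TGATGNAAT (0.991%) were in none of the 9 member windows. A match describes the sequence only and says nothing of binding in these cells.

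The arrays had median signals of 80.7 to 90.4, with 42.7% to 47.4% of probes detected. Vehicle 6 h replicate 1 had a wider upper range, with a 75th percentile of 149.3, whereas the other 11 arrays lay between 115.1 and 125.4. Each of the 8 analogue arrays correlated best, among the arrays of its own treatment, with an array of the other time label, and so did both 6 h vehicle arrays. Whether the time or replicate labels are right cannot be told from the files. Every value given for 6 h, for 24 h or for the change with time rests on them. Labelled comparisons are therefore given beside comparisons over both times, which use all 4 arrays of a treatment. The fit over both times was chosen with earlier results of these data known, which showed this likeness across time labels. Of 8 mesenchymal and bone markers 7 were measured in the U2OS RNA. The blood and skin markers PTPRC, CD3E, HBB, KRT5 and KRT14 were detected on 0 arrays, whereas the epithelial marker EPCAM was detected on all 12 arrays and the monocyte marker CD14 on up to 6. Levels are log2 normalized signals, and a relative level is the level minus the mean of the 4 vehicle arrays.

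No member passed an adjusted p under 0.05 in any of the 12 comparisons, tested with limma over 22186 probes with Benjamini-Hochberg adjustment. In the 9 comparisons that used the time labels the share of all probes that passed was 0%. Over both times it was 0.577% (128 probes) for ST362 against vehicle, 0.446% (99) for MEB55 against vehicle and 0.018% (4) for MEB55 against ST362. At an unadjusted p under 0.05, 3 of 8 members lay above vehicle over both times with ST362 (HMOX1, TXNRD1 and SRXN1), where 13.2% of all probes reached that p in either direction. With MEB55 there were 3 of 8 (HMOX1, GCLM and SRXN1), against 10.5% of all probes. The contrast of MEB55 with ST362 over both times had 0 of 8, against 7.88%. These counts read each gene from its brightest probe, and the dimmer TXN probe also reached that p with MEB55 over both times (adjusted p = 0.392 with limma).

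Within a time label, SRXN1 was the 1 member whose brightest probe reached an unadjusted p under 0.05 in ST362 against vehicle at 6 h (5.81% of all probes did), in MEB55 against vehicle at 6 h (4.63%) and in MEB55 against vehicle at 24 h (5.31%). The count was 0 of 8 for ST362 against vehicle at 24 h (7.59% of all probes) and for MEB55 against ST362 with the 6 h label (2.75%) and the 24 h label (3.62%). It was also 0 for the change of the effect with time, where 2.47% of all probes reached that p for ST362 and 1.41% for MEB55. Vehicle 24 h against vehicle 6 h had 1, NQO1, against 2.86% of all probes. Among the dimmer probes, that of TXN reached it in MEB55 against vehicle at 6 h (log2 0.57, unadjusted p = 0.0363) and that of TXNRD1 in ST362 against vehicle at 24 h (log2 1.05, unadjusted p = 0.0183), with limma.

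**Figure D1:**
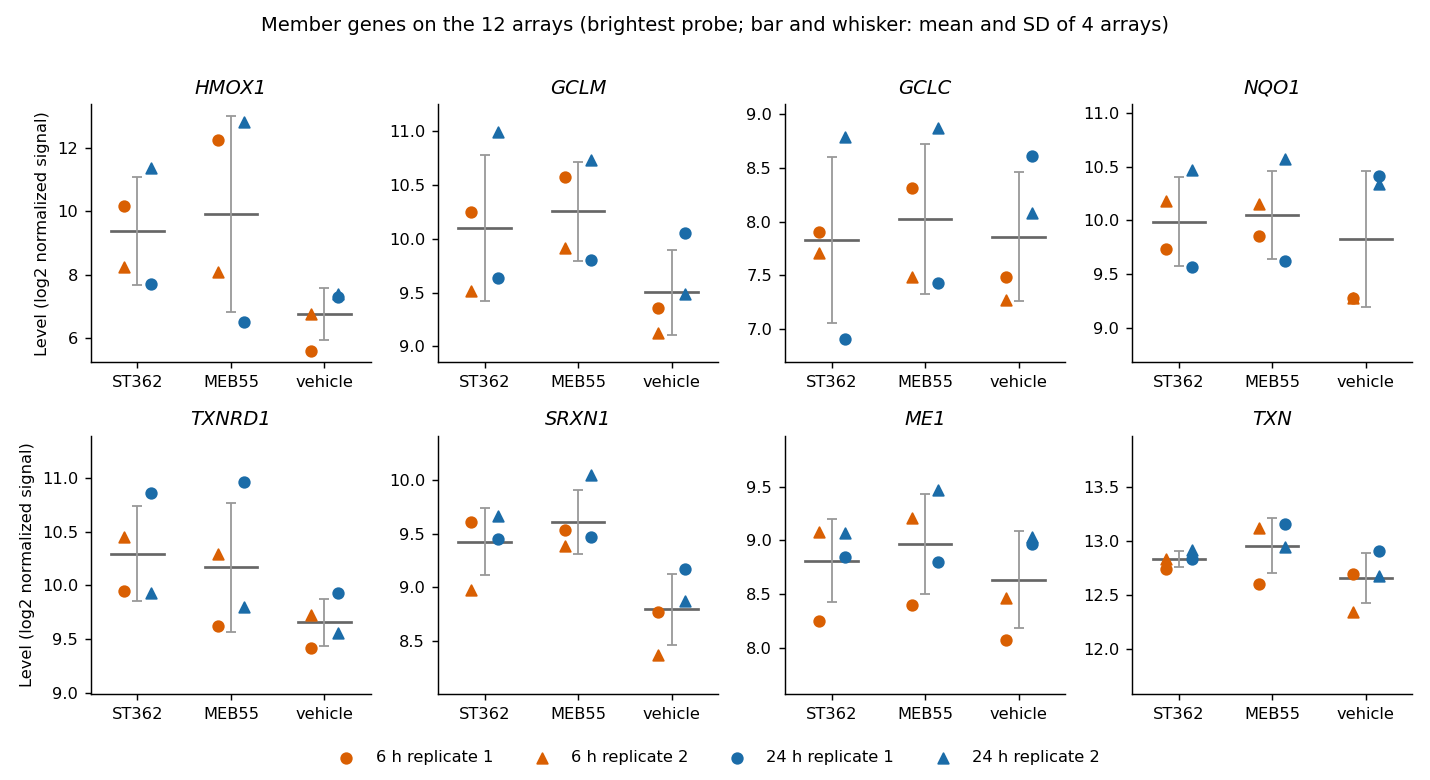
Level of each member gene (vertical axis, log2 normalized signal of its brightest probe, with a scale of its own in each panel) under ST362, MEB55 and vehicle. Points are single arrays coloured by time and shaped by replicate, and the bar and whisker give the mean and SD of 4 arrays; HMOX1 spread over 6.52 to 12.79 with MEB55 and over 5.60 to 7.39 with vehicle.

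HMOX1 encodes heme oxygenase 1, which breaks heme down to biliverdin, iron and carbon monoxide. With ST362 its levels were 10.17 and 8.25 on the 6 h arrays and 7.71 and 11.36 on the 24 h arrays. The MEB55 arrays gave 12.22 and 8.08 for 6 h, then 6.52 and 12.79 for 24 h, against 5.60 and 6.74 on the 6 h vehicle arrays and 7.30 and 7.39 on the 24 h vehicle arrays. All 4 ST362 arrays lay above all 4 vehicle arrays, whereas 3 of the 4 MEB55 arrays did and MEB55 24 h replicate 1 lay inside the vehicle range. The highest level with each analogue was on replicate 2 at 24 h and the next on replicate 1 at 6 h. Before normalization the HMOX1 signal on these arrays was 2644.9 and 1056.7 with ST362 and 7514.1 and 4801.9 with MEB55, whereas vehicle arrays gave 135.3 to 234.4.

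Over both times HMOX1 was 6.12-fold higher with ST362 than with vehicle (log2 2.61, SE 1.18, adjusted p = 0.361) and 8.84-fold higher with MEB55 (log2 3.14, SE 1.18, adjusted p = 0.332). It had the largest fold of the 8 members and also the widest standard error. Without replicate 2 at 24 h the log2 difference was 1.95 with ST362 and 2.18 with MEB55. The MEB55 value was 4.27 without replicate 1 at 24 h, 2.37 without replicate 1 at 6 h and 3.75 without replicate 2 at 6 h. The SD of the level over 4 arrays was 1.69 with ST362, 3.08 with MEB55 and 0.82 with vehicle. For the 6 h label the log2 difference was 3.03 under ST362 and 3.98 under MEB55, and for the 24 h label it was 2.19 under ST362 and 2.31 under MEB55, each with an SE of 1.90. At 6 h the value was 2.08 to 3.99 with ST362 and 1.91 to 6.05 with MEB55 when 1 array was left out, and at 24 h it was 0.37 to 4.02 with ST362. At 24 h the MEB55 value was 5.45 without replicate 1 and -0.83 without replicate 2, so single arrays set its direction.

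GCLM and GCLC are the modifier and catalytic subunits of glutamate-cysteine ligase, which carries out the rate-limiting step of glutathione synthesis. GCLM levels were 10.25, 9.51, 9.64 and 10.99 with ST362 and 10.57, 9.92, 9.81 and 10.73 with MEB55 (replicates 1 and 2 at 6 h, then 1 and 2 at 24 h), against 9.35, 9.12, 10.05 and 9.49 with vehicle. The arrays with the highest GCLM were the same ones that had the highest HMOX1, replicate 1 at 6 h and replicate 2 at 24 h, and the other analogue arrays overlapped vehicle. GCLM was 1.51-fold higher with ST362 (log2 0.59, SE 0.31, adjusted p = 0.442) and 1.68-fold higher with MEB55 (log2 0.75, SE 0.31, adjusted p = 0.389). Its dimmer probe gave log2 differences of 0.32 with ST362 and 0.78 with MEB55.

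GCLC levels were 7.90, 7.71, 6.91 and 8.79 with ST362 and 8.31, 7.48, 7.43 and 8.87 with MEB55, against 7.48, 7.27, 8.61 and 8.08 with vehicle. The treatments overlapped over most of their range, and GCLC differed from vehicle by log2 -0.03 with ST362 (SE 0.40, adjusted p = 0.985) and 0.16 with MEB55 (SE 0.40, adjusted p = 0.935). The 95% intervals were -0.89 to 0.82 and -0.69 to 1.02, which allow a difference in either direction. GCLC was lowest on ST362 24 h replicate 1 and highest on replicate 2 at 24 h of both analogues.

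SRXN1, sulfiredoxin, restores peroxiredoxins whose cysteine was overoxidized. Its levels were 9.61, 8.98, 9.45 and 9.67 with ST362 and 9.53, 9.38, 9.47 and 10.05 with MEB55, against 8.77, 8.37, 9.17 and 8.87 with vehicle. The 4 MEB55 arrays lay above all 4 vehicle arrays, and with ST362 only replicate 2 at 6 h fell within the vehicle range. SRXN1 varied less within a treatment than HMOX1, with an SD of 0.31 with ST362, 0.30 with MEB55 and 0.33 with vehicle. It was 1.55-fold higher with ST362 (log2 0.63, SE 0.20, adjusted p = 0.175) and 1.75-fold higher with MEB55 (log2 0.81, SE 0.20, adjusted p = 0.104). These were the smallest adjusted p-values of any member in the 2 comparisons with vehicle over both times.

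TXNRD1 is the cytosolic thioredoxin reductase, which uses NADPH to reduce thioredoxin. Levels of its brightest probe were 9.95, 10.45, 10.86 and 9.93 with ST362 and 9.62, 10.30, 10.96 and 9.80 with MEB55, against 9.42, 9.72, 9.93 and 9.56 with vehicle. Here the highest arrays were replicate 2 at 6 h and replicate 1 at 24 h with each analogue, the arrays on which HMOX1 and GCLM were lower. TXNRD1 was 1.56-fold higher with ST362 (log2 0.64, SE 0.27, adjusted p = 0.32) and 1.43-fold higher with MEB55 (log2 0.51, SE 0.27, adjusted p = 0.54). The dimmer probe, annotated to another transcript, gave log2 0.72 (SE 0.25) and 0.42 (SE 0.25), and its correlation with the brighter probe over the 12 arrays was 0.927. TXN, thioredoxin itself, was the brightest member with levels of 12.34 to 13.16 on all arrays, and differed from vehicle by log2 0.18 (SE 0.15) with ST362 and 0.30 (SE 0.15) with MEB55. Its dimmer probe gave 0.27 with ST362 and 0.40 with MEB55 (SE 0.17 each).

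NQO1, the quinone reductase that keeps quinones out of redox cycling, had levels of 9.74, 10.18, 9.57 and 10.47 with ST362 and 9.85, 10.15, 9.62 and 10.57 with MEB55, against 9.28, 9.27, 10.41 and 10.34 with vehicle. The vehicle arrays themselves split by time label, and on this brightest probe all 8 analogue arrays lay above the 6 h vehicle arrays. Over both times NQO1 differed from vehicle by log2 0.16 with ST362 and 0.22 with MEB55, each with an SE of 0.29. Its dimmer probe gave 0.01 with ST362 and 0.09 with MEB55 (SE 0.29 each). ME1, cytosolic malic enzyme and a source of NADPH, had levels of 8.25, 9.08, 8.84 and 9.06 under ST362 and 8.40, 9.20, 8.79 and 9.47 under MEB55, against 8.08, 8.46, 8.97 and 9.03 under vehicle, so the treatments overlapped. Its differences were log2 0.18 with ST362 and 0.33 with MEB55, each with an SE of 0.26.

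**Figure D2:**
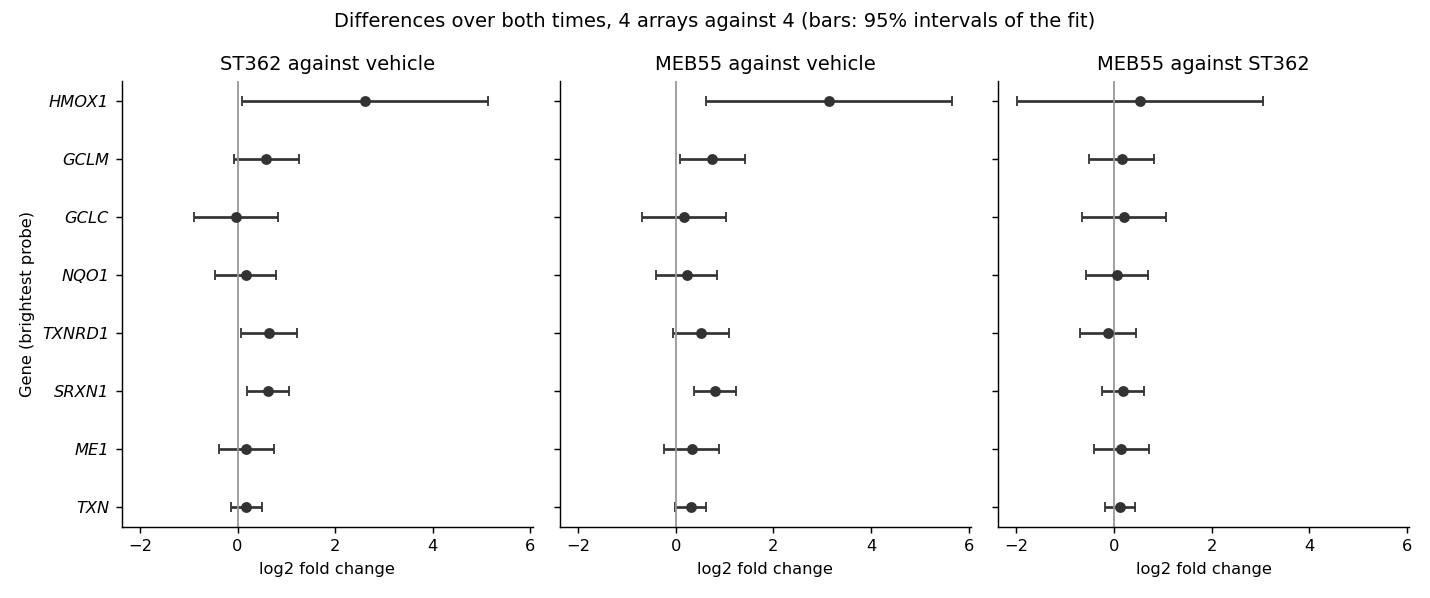
log2 fold change of each member gene over both times (horizontal axis) with the 95% interval of the limma fit, 4 arrays against 4; the vertical axis lists the genes. SRXN1 at 0.63 and 0.81 and HMOX1 at 2.61 and 3.14 had intervals above 0 with both analogues, and those of HMOX1 were the widest. The intervals of TXNRD1 with ST362 and of GCLM with MEB55 also lay above 0. Intervals are not adjusted for the number of probes, and no member passed an adjusted p under 0.05. Every interval of MEB55 against ST362 included 0.

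Counts of arrays that did not overlap were read against the background over all tested probes. All 4 ST362 arrays lay above all 4 vehicle arrays for 2 of 8 members, HMOX1 and TXNRD1, and for 4.07% of all probes. For MEB55 this held for 1 of 8 members, SRXN1, and for 3.26% of all probes. For TXNRD1 the margin was small, since ST362 24 h replicate 2 and the highest vehicle array both round to 9.93.

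Single arrays differed in how many members stood above the highest vehicle array. On ST362 24 h replicate 2 it was 8 of 8, and 23.8% of all probes did so. On MEB55 24 h replicate 2 it was 7 of 8, against 25.6%. The other 6 analogue arrays had 3 to 5 of 8: ST362 6 h replicate 1 had 4 (22% of all probes), ST362 6 h replicate 2 had 3 (25.6%), MEB55 6 h replicate 1 had 3 (21.8%), MEB55 6 h replicate 2 had 5 (23.4%), ST362 24 h replicate 1 had 3 (26%) and MEB55 24 h replicate 1 had 3 (24.3%). The median relative level of the 8 members was highest on the same 2 arrays, 0.76 on ST362 24 h replicate 2 and 0.92 on MEB55 24 h replicate 2, whereas the other analogue arrays ran from 0.19 to 0.52 and the vehicle arrays from -0.35 to 0.46.

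**Figure D3:**
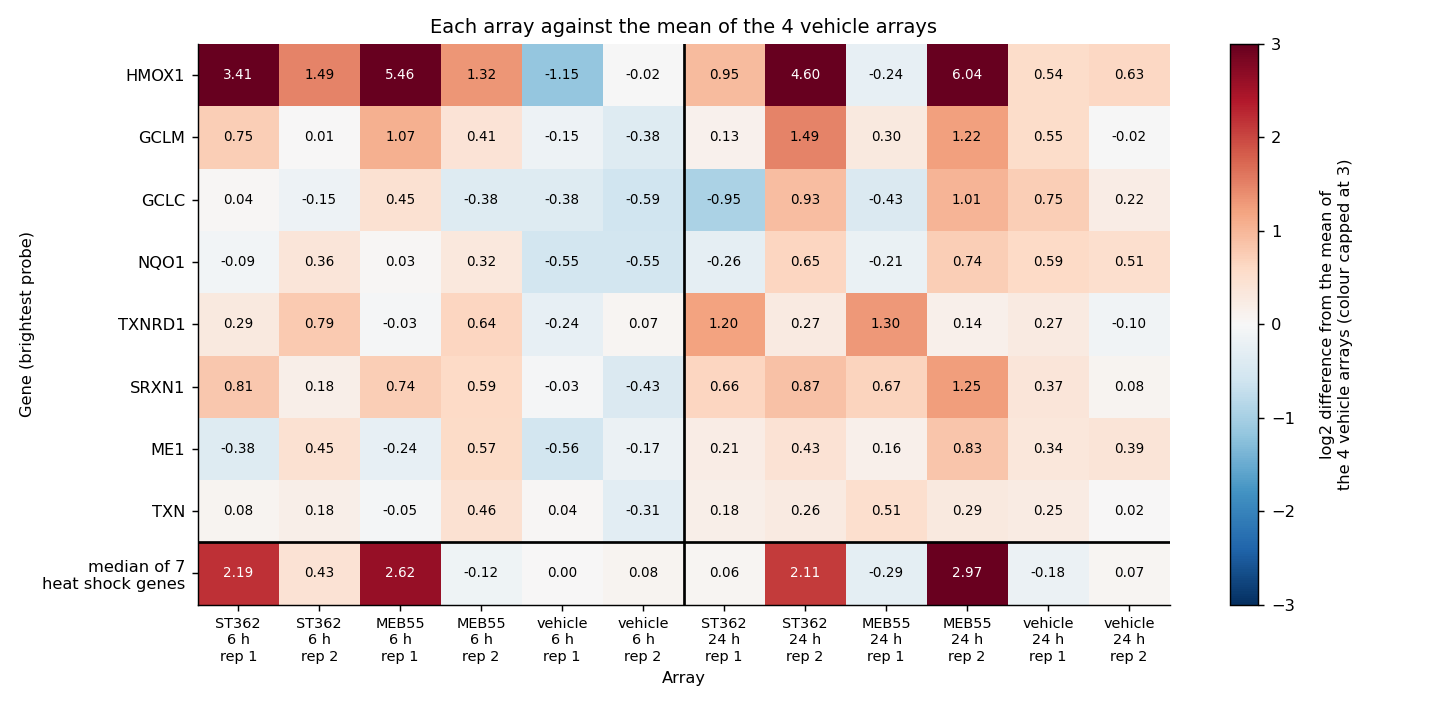
Relative level (log2 difference from the mean of the 4 vehicle arrays) of each member gene, in rows, on each array, in columns, with the median of 7 heat shock genes below; colours are capped at 3. HMOX1 was at 3.41 to 6.04 on the 4 arrays where the heat shock median was 2.11 to 2.97, and TXNRD1 was at 0.64 to 1.30 on the other 4 analogue arrays.

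The arrays with the highest HMOX1 also carried the heat shock genes, which are chaperones and co-chaperones under HSF1. The median relative level of 7 such genes was 2.19 on ST362 6 h replicate 1, 2.11 on ST362 24 h replicate 2, 2.62 on MEB55 6 h replicate 1 and 2.97 on MEB55 24 h replicate 2. On the other 4 analogue arrays it was -0.29 to 0.43, and on the vehicle arrays -0.18 to 0.08. HSPA6, a stress-induced HSP70, had relative levels of 5.95, 0.44, 0.20 and 6.51 under ST362 and 6.45, 1.06, 0.25 and 7.99 under MEB55 in the same array order, against -0.14 to 0.18 on vehicle arrays. The part of the heat shock response in the HMOX1 levels was not tested. On replicate 2 at 6 h and replicate 1 at 24 h, HMOX1 was at 1.49 and 0.95 with ST362 and at 1.32 and -0.24 with MEB55. Vehicle arrays had HMOX1 at -1.15 to 0.63. The heat shock median on those analogue arrays was 0.43 and 0.06 with ST362 and -0.12 and -0.29 with MEB55, so with ST362 at 6 h it was above vehicle.

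DDIT3, which encodes the stress factor CHOP, divided the arrays in the same way. Its relative levels were 1.99, 0.17, 0.26 and 3.03 with ST362 and 3.22, 0.20, 0.33 and 4.17 with MEB55, whereas vehicle arrays lay between -0.22 and 0.27. Of 6 ATF4 and CHOP genes, TRIB3 passed over both times with MEB55 (log2 1.52, SE 0.21, adjusted p = 0.00881), and 0 passed with ST362. ASNS, asparagine synthetase, had log2 differences of 0.40 under ST362 and 0.89 under MEB55 (SE 0.21 each), and ATF4 itself had 0.33 and 0.42 (SE 0.10 each). TRIB3, a pseudokinase, had relative levels of 0.91 to 2.20 on the MEB55 arrays, 0.19 to 0.61 on the ST362 arrays and -0.13 to 0.14 on the vehicle arrays.

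The vehicle arrays of the 2 time labels were compared in the same way, and 0 members passed. On their brightest probes all 8 members had higher means on the 24 h than on the 6 h vehicle arrays. Their median log2 difference was 0.63, whereas the median over all tested probes was 0.00 and 50.3% of them were above 0. NQO1 had the smallest p (log2 1.10, SE 0.34, unadjusted p = 0.00903, adjusted p = 0.9996). Its dimmer probe gave log2 0.67 (SE 0.43, unadjusted p = 0.147 with limma). The differences of the others were 1.17 for HMOX1 (SE 1.90), 0.96 for GCLC, 0.73 for ME1, 0.53 for GCLM, 0.45 for SRXN1, 0.27 for TXN and 0.17 for TXNRD1. The dimmer TXNRD1 probe went the other way, at -0.21 (SE 0.38), whereas the dimmer probes of GCLM, GCLC, NQO1 and TXN lay above 0. Against these vehicle levels, 8 of 8 members were above vehicle at 6 h with each analogue. Of all tested probes 48.9% were above 0 with ST362 and 49.3% with MEB55. The members had median log2 differences of 0.63 for ST362 and 0.63 for MEB55. At 24 h, 5 of 8 were above vehicle with ST362 (median 0.31), against 48.9% of all tested probes. With MEB55 it was 6 of 8 (median 0.38), against 49.7%.

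For NQO1 the 6 h differences were log2 0.68 under ST362 and 0.73 under MEB55, and the 24 h differences were -0.36 under ST362 and -0.28 under MEB55. The change with time was -1.04 for ST362 (SE 0.49, adjusted p = 0.9993) and -1.01 for MEB55 (SE 0.49, adjusted p = 0.9998), and did not pass. On the dimmer NQO1 probe the 6 h differences were 0.25 under ST362 and 0.37 under MEB55. Its change with time was -0.49 for ST362 and -0.54 for MEB55. SRXN1 kept much the same difference at both labels, 0.72 at 6 h and 0.54 at 24 h with ST362 and 0.89 and 0.73 with MEB55. With 2 arrays a group the intervals of these values were wide, such as 0.13 to 1.31 for SRXN1 with ST362 at 6 h.

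MEB55 and ST362 were compared directly at the same dose in ppm. By the study's conversion the same ppm is a higher molarity for MEB55, so compound and molar dose cannot be told apart here. Over both times the differences in the 8 members ran from log2 -0.13 for TXNRD1 to 0.53 for HMOX1. Of these, 7 of 8 were above 0, against 51.2% of all tested probes. Their median was 0.16, beside 0.00 over all tested probes. The 95% interval was narrowest for TXN (-0.19 to 0.44) and widest for HMOX1 (-1.99 to 3.05). For SRXN1 it was -0.25 to 0.61. A p-value above the threshold does not show that the analogues acted alike on these genes, and for HMOX1 the arrays allowed differences in either direction.

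The proteins that control NRF2 were described from a list of 10 regulators, of which 7 were measured and 0 passed over both times. NFE2L2, the gene of NRF2 itself, differed from vehicle by log2 0.19 with ST362 and 0.11 with MEB55 (SE 0.16 each). KEAP1 differed by 0.05 with ST362 and -0.18 with MEB55 (SE 0.12 each). SQSTM1, which encodes p62, an autophagy receptor that binds KEAP1 and is also an NRF2 target, was closest to the threshold. Under ST362 it differed by 0.73 (SE 0.16, adjusted p = 0.0639), and the MEB55 value was 0.75 (SE 0.16, adjusted p = 0.0717). Its relative levels were 0.66, 0.97, 0.77 and 0.53 with ST362 and 0.74, 0.70, 0.67 and 0.87 with MEB55, against -0.37, -0.10, -0.03 and 0.51 with vehicle, so all 8 analogue arrays lay above all 4 vehicle arrays, as they did for 1.08% of all tested probes (240) and for 0 of 8 members. The margin for SQSTM1 was small, with ST362 24 h replicate 2 at 0.53 beside the highest vehicle array at 0.51. The small MAF genes MAFF and MAFG differed by 0.78 and 0.60 with ST362 and by 0.43 and 0.42 with MEB55, with SEs of 0.24 to 0.25. CUL3 and BACH1 were detected on 0 arrays, and MAFK has no probe under its symbol in the annotation.

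Other NRF2 targets were taken from 5 lists with 38 genes, of which 30 were measured. SLC7A11, the cystine importer that feeds glutathione synthesis, was the only one that passed, and which factor acted on it was not tested. It rose with ST362 (log2 1.47, SE 0.25, adjusted p = 0.0341) and with MEB55 (log2 1.55, SE 0.25, adjusted p = 0.0214). Its call depended on single arrays: left out 1 at a time, vehicle 6 h replicate 1, vehicle 6 h replicate 2 and vehicle 24 h replicate 2 each ended it for both analogues (adjusted p = 0.0778 to 0.109 with ST362 and 0.0551 to 0.0797 with MEB55), with the direction kept. For ST362 it also ended without replicate 2 at 6 h (adjusted p = 0.0927) or replicates 1 (0.106) or 2 (0.0533) at 24 h, and for MEB55 without replicate 2 at 24 h (0.0592). The study names SLC7A11 from these samples, so its place on the list is not independent of its direction. Its relative levels were 1.00, 1.57, 1.60 and 1.71 with ST362 and 0.99, 1.75, 1.84 and 1.61 with MEB55, against -0.23, -0.56, 0.69 and 0.09 with vehicle. All 8 analogue arrays lay above the highest vehicle array, a pattern that 1.08% of all tested probes shared.

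Of the 30 measured targets, 26 lay above 0 with ST362 and 25 with MEB55, beside 48.3% of all probes in each comparison. The median log2 difference was 0.25 with ST362 and 0.31 with MEB55, whereas the median over all tested probes was -0.01 in each. At 6 h the medians were 0.43 and 0.52, and at 24 h they were 0.13 and 0.13. The same 30 targets were higher on 24 h than on 6 h vehicle arrays in 27 cases, with a median of 0.48, and 0 of them passed that comparison.

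**Figure D4:**
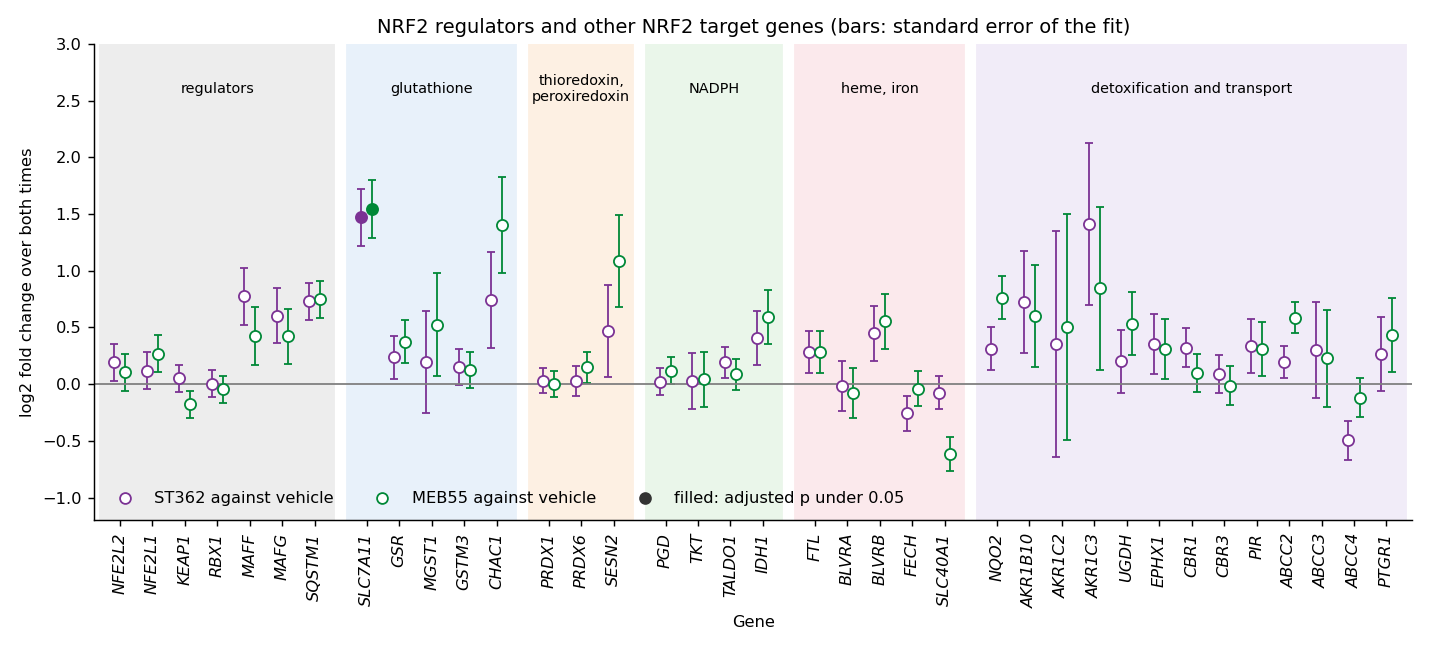
log2 fold change over both times (vertical axis) of 7 NRF2 regulators and 30 other NRF2 target genes (horizontal axis, grouped by role) for each analogue against vehicle, with the standard error of the fit. Filled points passed an adjusted p under 0.05, which holds for SLC7A11 at 1.47 and 1.55 and for no other gene shown.

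In the glutathione list CHAC1, which degrades glutathione and is a CHOP target, had log2 differences of 0.74 (SE 0.42) with ST362 and 1.40 (SE 0.42) with MEB55, whereas glutathione reductase GSR had 0.24 and 0.38 (SE 0.19 each) and GSTM3 had 0.15 and 0.13 (SE 0.16 each). In the thioredoxin list SESN2, which is also on the ATF4 and CHOP list, had 0.47 with ST362 and 1.09 with MEB55 (SE 0.41 each). The peroxiredoxins PRDX1 and PRDX6 lay between 0.00 and 0.15. Of the NADPH genes IDH1 had 0.41 and 0.60 (SE 0.24 each), and PGD, TKT and TALDO1 lay between 0.02 and 0.19. Among heme and iron genes the iron exporter SLC40A1 had -0.07 with ST362 and -0.62 with MEB55 (SE 0.15 each, adjusted p = 0.0959 with MEB55), and FTL, ferritin light chain, had 0.28 and 0.29 (SE 0.18 each). BLVRB, a biliverdin reductase, had 0.45 and 0.56 (SE 0.24 each), and FECH had -0.26 and -0.04 (SE 0.15 each). Of the 5 measured heme and iron genes 2 lay above 0 with each analogue, with medians of -0.01 for ST362 and -0.04 for MEB55.

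In the detoxification and transport list the MEB55 differences closest to the threshold were those of the efflux pump ABCC2 (log2 0.59, SE 0.14, adjusted p = 0.0935) and the quinone reductase NQO2 (0.76, SE 0.19, adjusted p = 0.104). With ST362 ABCC2 had 0.20 (SE 0.14) and NQO2 had 0.31 (SE 0.19). Another efflux pump, ABCC4, had -0.50 with ST362 and -0.12 with MEB55 (SE 0.17 each). AKR1C3, an aldo-keto reductase, had 1.41 with ST362 and 0.85 with MEB55, each with an SE of 0.72, and its vehicle arrays had an SD of 1.24. Of 12 measured antioxidant genes that were not listed as NRF2 targets, 0 passed, and 6 were above 0 with ST362 and 7 with MEB55, with medians of 0.06 and 0.04. GLRX, glutaredoxin, had the smallest adjusted p of them, at log2 0.78 under ST362 (SE 0.21, adjusted p = 0.111), and its MEB55 value was 0.67 (SE 0.21, adjusted p = 0.23).

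The members followed each other to different degrees over the 12 arrays, which share treatments and are not independent points. GCLM correlated with HMOX1 (r = 0.878), SRXN1 (0.857) and GCLC (0.78), and NQO1 with ME1 (0.808). TXNRD1 had r of -0.209 with HMOX1, -0.101 with GCLM, -0.473 with GCLC and -0.091 with NQO1, whereas with TXN it had 0.616, with ME1 0.306 and with SRXN1 0.263. Both probes of a gene followed each other at r of 0.881 to 0.933 in the 5 members with 2 probes. The genes most like HMOX1 were PWWP3B (0.969), PGF (0.957) and DDIT4 (0.956). Those most like GCLM were TLR6 (0.95), CWF19L2 (0.945) and CANX (0.943), and those most like SRXN1 were ITPR1 (0.956), SHMT2 (0.95) and CDKL3 (0.92). TXNRD1 was most like TMEM156 (0.932 and 0.929 for its 2 probes) and SCARNA12 (0.916), and ME1 like PTGR1 (0.958), FKBP2 (0.947) and MGST1 (0.941). These likenesses were ranked over the tested probes with a symbol and carry no test. Provisional symbols (such as LOC, FLJ or KIAA) and the probes of the members were left out of the ranking.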

How the data were processed

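RNA of U2OS cells on 12 Illumina HumanHT-12 arrays was analysed, with groups taken from the sample labels. Per the file headers, the authors deposited probe intensity from GenomeStudio, not normalized, with a detection p-value for each probe and array. The authors' series intensities equal quantile normalized signals (largest gap 0.366%) and served as an alternative. The study's methods used an unadjusted p-value and a 2-fold cutoff after a signal minimum of 100.

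neqc (limma 3.58.1, R 4.3.3, offset 16) corrected the background through the detection p-values, normalized by quantiles and took log2. Of 47313 probes, 30109 had 1 symbol, 8 several and 17196 none. The 22186 probes that had a detection p under 0.05 on both arrays of some group were tested. The fit of 6 groups had 6 residual degrees of freedom and a median SD of 0.23, and the fit of treatment alone had 9 and 0.221. lmFit and eBayes were used, with Benjamini-Hochberg adjustment over all tested probes. A gene was read from its brightest tested probe. The code was tested on simulated data. The number of arrays limits the precision.

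The members, the lists and the fit over both times were chosen with earlier results of these data known. Named were all members, up to 4 genes of each list with the smallest adjusted p over both times, and the 3 probes most correlated with a member. NFE2L2, KEAP1, DDIT3, TXNIP and AKR1C2 fall outside this rule and were chosen after their values were seen. Alternatives covered background correction, normalization, probe filter, variance model, array weights, replicate block, arrays in the fit, probes of a gene, the methods' cutoff and leaving out each array. Slides are not given in the sources used here, so no block for slide was fitted. Promoter sequences are from RefSeq.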

Additional observations from a re-analysis of the deposited data

Results flagged for a closer look

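1 of 39 sets of 4 arrays, the 13 member probes under each treatment, held an array far from the other 3. On the dimmer TXNRD1 probe, vehicle 24 h replicate 2 was at 8.33, against 8.83, 8.81 and 8.89 on the other vehicle arrays, and its gap to the nearest was 0.855 of the whole range. Chance alone flags about 1 in 20 such sets. On the brighter TXNRD1 probe the same array lay inside the vehicle range.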

How the results depend on the processing

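Fold changes of members between treatments, without the change with time and the vehicle comparison, were recomputed 1704 times under the alternatives other than the methods' cutoff and the crossed block: 1641 kept their direction and their side of the threshold, 1 passed it newly and 62 changed direction, 58 of them without 1 array. With each array left out in turn, 0 members passed in limma. At the methods' cutoff (unadjusted p, 2-fold and signal minimum) 1 member passed for vehicle 24 h against 6 h (NQO1). HMOX1 was the 1 member that passed for ST362 and for MEB55 over both times. These counts read the brightest probe. The dimmer NQO1 probe did not meet this cutoff for vehicle 24 h against 6 h (log2 0.67). The dimmer TXNRD1 probe did meet it in ST362 against vehicle at 24 h (log2 1.05, unadjusted p = 0.0183 with limma). Its signals on the ST362 24 h arrays were 1159.8 and 597 before normalization. All probes passing at the labelled comparisons numbered 154 and 155 at 6 h and 161 and 142 at 24 h for ST362 and MEB55 against vehicle. They numbered 46 at each time for MEB55 against ST362, 99 and 23 for the change with time and 62 for vehicle. Adjusted p-values gave 0 in each of these labelled comparisons. The cause of these changes was not tested.

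Nothing in the labels pairs same-numbered arrays across treatments. Their deviations correlated at 0.492 between ST362 and MEB55 at 6 h but at 0.0768 and -0.138 with vehicle, and at 0.476, -0.171 and -0.0587 at 24 h. With the replicate block no call changed for MEB55 against ST362 over both times, where the SE became 0.859 in place of 1.18 for HMOX1 and 0.145 in place of 0.147 for TXN, and 1 member passed for MEB55 over both times, SRXN1 (log2 0.81, adjusted p = 0.0307; range over its alternatives 0.0307 to 0.27), and 168 probes passed in all for that comparison. A crossed replicate block, chosen after seeing the data, gave 1 member with MEB55, and 298 and 249 calls over all probes.

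Calls over all probes for ST362 over both times were 0 without a probe filter and as the mean of both times in the fit of 6 groups, 21 with time as a term, 85 with offset 50, 252 with only the arrays compared and 267 with array weights. Without 1 array they ran from 0 to 230, reaching 0 on removal of replicate 2 at 6 h or 24 h of vehicle, of replicate 2 at 6 h of ST362 or of its replicate 1 at 24 h. For MEB55 they ran from 3 to 249 over the alternatives and from 16 to 71 without 1 array, and for MEB55 against ST362 from 0 to 58.

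Computed for SLC7A11 and TRIB3 after seeing the data, the alternatives without a probe filter and with the mean of both times in the fit of 6 groups ended the SLC7A11 call for both analogues (adjusted p = 0.082 and 0.132 with ST362, 0.09 and 0.051 with MEB55), and TRIB3 kept its call with MEB55 in all of them.

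With 75th percentile scaling MEB55 against ST362 turned to 0.088 for GCLM and 0.11 for TXNRD1 at 24 h and to 0.0011 for TXNRD1 over both times, and with the mean of all probes of a gene to 0.16 for GCLM at 24 h.

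Leaving out 1 array at a time turned the direction of the following log2 differences, given as lowest to highest. ST362 against vehicle at 6 h gave ME1 -0.016 to 0.81. ST362 against vehicle at 24 h gave GCLM -0.14 to 1.22, GCLC -1.44 to 0.44, NQO1 -0.81 to 0.098, ME1 -0.15 to 0.066 and TXN -0.028 to 0.20. MEB55 against vehicle at 24 h gave HMOX1 -0.83 to 5.45, GCLC -0.91 to 0.53, NQO1 -0.76 to 0.19 and ME1 -0.20 to 0.47. MEB55 against ST362 at 6 h gave HMOX1 -1.13 to 3.01, GCLM -0.0057 to 0.73, GCLC -0.32 to 0.51, NQO1 -0.18 to 0.27, TXNRD1 -0.57 to 0.099, SRXN1 -0.15 to 0.48, ME1 -0.28 to 0.55 and TXN -0.19 to 0.33. MEB55 against ST362 at 24 h gave HMOX1 -3.02 to 3.26, GCLM -0.72 to 0.63, GCLC -0.64 to 1.24, NQO1 -0.40 to 0.55, TXNRD1 -0.60 to 0.57, SRXN1 -0.093 to 0.49 and ME1 -0.16 to 0.51. ST362 against vehicle over both times gave GCLC -0.35 to 0.27, NQO1 -0.020 to 0.36 and ME1 -0.0088 to 0.36. MEB55 against vehicle over both times gave GCLC -0.12 to 0.41. MEB55 against ST362 over both times gave HMOX1 -0.43 to 1.66, GCLM -0.036 to 0.46, GCLC -0.11 to 0.52, NQO1 -0.12 to 0.22, TXNRD1 -0.39 to 0.061 and ME1 -0.031 to 0.34.

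The number of arrays limits all of these values: with 2 a group, leaving 1 out leaves a single array, assumed to vary like the other groups. The brightest probe of each measured member was detected on all 12 arrays. HMOX1 was dim on vehicle arrays, with signals of 135.3 to 234.4 beside array medians of 80.7 to 90.4. Without background correction its log2 difference over both times was 2.10 with ST362 and 2.72 with MEB55, in place of 2.61 and 3.14.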

Other observations

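TXNIP, which encodes an inhibitor of thioredoxin, varied with the arrays and not only with treatment. Its relative levels were 1.60, -0.47, -0.66 and 2.24 with ST362 and 1.30, -0.73, -0.67 and 1.34 with MEB55, against 0.52, -0.48, 0.46 and -0.50 with vehicle. TXNIP did not pass over both times (log2 0.68 with ST362 and 0.31 with MEB55, SE 0.64 each, adjusted p = 0.705 and 0.922 with limma).

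AKR1C2, an aldo-keto reductase, spread over several log2 units on vehicle as well as on analogue arrays. Its relative levels were -1.78, 2.98, -0.50 and 0.71 with ST362 and -1.58, 2.08, 0.20 and 1.34 with MEB55, whereas vehicle arrays were at -1.84 and -0.92 at 6 h and at 1.28 and 1.49 at 24 h. MGST1, a microsomal glutathione transferase, was likewise at -0.98 and -0.62 on the 6 h vehicle arrays and at 0.77 and 0.82 on the 24 h vehicle arrays.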
